A study of Mus musculus with 4 samples.

Results

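The major urinary protein (Mup) gene cluster of mouse chromosome 4 was examined in H4K16ac ChIP-Seq of liver. The genes of interest were Mup3, Mup4, Mup5, Mup6, Mup20 and Mup21, and the region was taken by position, as every H4K16ac island overlapping chr4:59800001-62000000 in the coordinates of the lists. This 2.2 Mb stretch is called the Mup window below. An island is a stretch with more ChIP reads than its input predicts, the input being chromatin of the same liver sequenced directly. The window held 32 of 28377 islands in MT and 29 of 26227 in WT, and merging islands that touched the same bases gave 38 regions of 36418.

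MT was a Sirt1-/- mouse that carried a targeted deletion in Sirt1 in every tissue, and WT was a wild-type mouse. Both were on a mixed 129/FVB/Black Swiss background and 3 months old. The study describes such mice as males and states that few Sirt1-/- mice live to adulthood, so the MT mouse was one of the survivors. Each genotype was 1 mouse with 1 ChIP library (anti-H4K16ac) and 1 input library, so that mouse, litter and genotype cannot be told apart and no p-value is given. The study describes more than a single pair of mice for ChIP-Seq, and the labels used here give 1 pair. The ranges given with values below are 95% intervals that cover counting error only. Whole liver was used, so fewer cells with the mark and less of the mark per cell cannot be told apart either. Acetylation islands carry no measure of Sirt1 mRNA, and the genotype labels were not checked here.

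Major urinary proteins are lipocalins, small barrel-shaped proteins that carry volatile pheromones. Hepatocytes secrete them into the blood, the kidney passes them into urine, and the scent marks they form identify their owner. In liver their genes are among the most strongly transcribed, with higher levels in males under the pulsatile growth hormone pattern. Mup20, also called darcin, is the male pheromone that draws females to a scent mark, Mup3 is made in liver, and Mup4 and Mup5 are known mainly from nasal, lacrimal and salivary glands. Acetylation of lysine 16 of histone H4 loosens chromatin packing, and Sirt1 is a deacetylase for this residue. The design asked whether loss of Sirt1 changes H4K16ac at genes.

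In the RefSeq annotation of GRCm38.p6, 22 genes of the family stand in one tandem array. Slc46a2, which encodes a membrane transporter, precedes the array, and Zfp37, a zinc finger gene, follows it. Mup4 and Mup6 take places 1 and 2, then come 16 central genes from Mup7 to Mup19, and Mup5, Mup20, Mup3 and Mup21 close the array at places 19 to 22. The bounds of the window were set on the mm9 scale, whereas the submitters' processing notes name mm8. Islands on 2 of 20 chromosomes end past the mm9 chromosome, and on 0 of 20 past the mm8 chromosome. The lists were therefore read as mm8, and neither mm8 nor mm9 gene positions were used here. No island was assigned to a gene, and it was not established that the window holds the whole array or that it holds no neighbouring genes. Islands at either end of the window may therefore belong to genes beside the array.

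How alike the copies are can be read from their promoters, which bears on where short reads can be placed. RefSeq held a promoter for 14 of the 22 family genes, among them Mup4, Mup6, Mup3 and Mup21. The 120 bases before the annotated start are printed for these 4 and for Mup15 and Mup17, a pair of central genes that show how close copies can be. Each line gives the position on GRCm38.p6 (not the scale of the lists) and the gene's own strand, 5′ to 3′, with the TATA-box-like motif TATATAA in capitals:
Mup4, chr4:59960668-59960787, minus strand: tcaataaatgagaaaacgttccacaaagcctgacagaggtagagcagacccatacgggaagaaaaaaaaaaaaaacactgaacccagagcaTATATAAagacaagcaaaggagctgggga
Mup6, chr4:60003361-60003480, plus strand: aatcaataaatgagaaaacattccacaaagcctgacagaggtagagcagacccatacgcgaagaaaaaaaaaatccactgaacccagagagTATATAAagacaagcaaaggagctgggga
Mup15, chr4:61439705-61439824, minus strand: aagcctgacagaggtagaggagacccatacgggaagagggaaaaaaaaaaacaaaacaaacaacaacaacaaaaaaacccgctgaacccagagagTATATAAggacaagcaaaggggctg
Mup17, chr4:61595833-61595952, minus strand: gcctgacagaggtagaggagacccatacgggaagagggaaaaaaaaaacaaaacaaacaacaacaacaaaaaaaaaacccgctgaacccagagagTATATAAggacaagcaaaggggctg
Mup3, chr4:62087318-62087437, minus strand: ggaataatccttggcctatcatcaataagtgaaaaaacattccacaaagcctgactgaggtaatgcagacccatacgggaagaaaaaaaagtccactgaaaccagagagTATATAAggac
Mup21, chr4:62150842-62150961, minus strand: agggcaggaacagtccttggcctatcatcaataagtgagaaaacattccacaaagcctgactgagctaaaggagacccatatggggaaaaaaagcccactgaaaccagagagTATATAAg

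The motif lies 29 bases before the start of Mup4 and of Mup6, 25 before that of Mup15 and of Mup17, and 11 and 8 before those of Mup3 and Mup21 as annotated. Over 300 bases, from 250 before to 50 after the start, and on both strands, TATATAA was found in 13 of 14 Mup promoters (all but Mup7) and in 3.24% of 32851 RefSeq promoters. TTCNNNGAA, the core bound by growth hormone-activated STAT5, was found in 0 of 14 and in 8.30% of all promoters. Both matches describe letters in this span, TATATAA was picked after the sequences had been read, and the Mup promoters are copies of one another.

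Across the 91 pairs of Mup promoters the median identity was 93.4%, and the lowest was 83.0%. The promoters of Mup15 and Mup17 were identical at each of their 297 aligned bases, gaps left aside. Mup4 and Mup6, neighbours at the start of the array, were 93.0% identical, and Mup3 and Mup21, neighbours at its end, were 93.9% identical. Mup4 and Mup21, at opposite ends, were 86.1% identical. Identity over a whole promoter does not say how many short reads would have a single origin, so each promoter was also split into its 265 stretches of 36 bases. In Mup3, 6.04% of these stretches were also found in another Mup promoter, and in Mup21 3.40%. The corresponding values were 15.8% in Mup4 and 22.3% in Mup6. In the other 10 genes the share ranged from 17.4% to 99.2% with a median of 69.6%, and it was highest in Mup15 and Mup19. The longest run shared exactly with another family promoter was 42 bases for Mup3 and Mup21, 55 for Mup4, 56 for Mup6 and 275 for Mup15 and Mup19. Among the 14 promoters held, Mup4, Mup6, Mup3 and Mup21 thus had more unshared sequence than most of the other 10, as the plot of shared stretches shows. Mup5, Mup20 and the other family genes without a promoter were not compared, so each share is a lower bound. The read length and the handling of reads with several matches are not given in the sources used here.

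**Figure D1:**
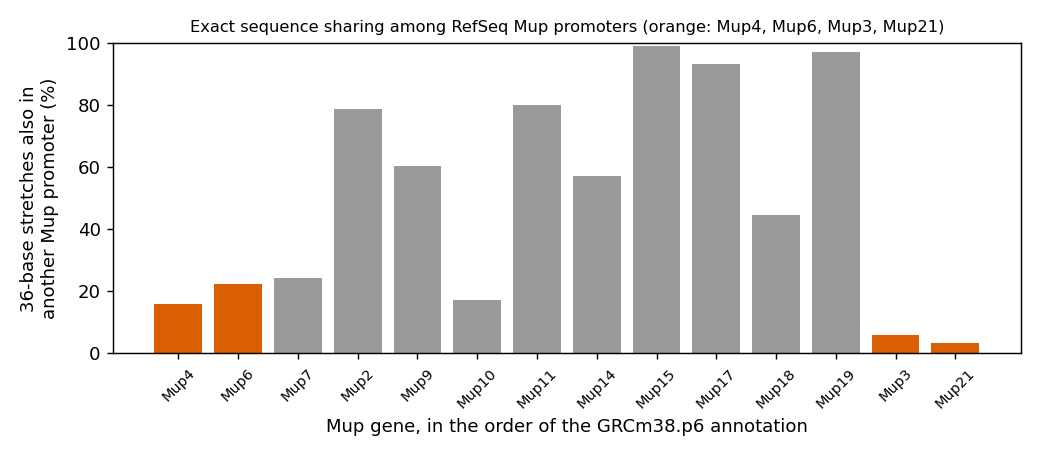
Share of 36-base stretches of each RefSeq Mup promoter (300 bases) that also occur in another of the 14 Mup promoters held, in percent, by gene in array order. Mup4, Mup6, Mup3 and Mup21 (orange) lie between 3.40% and 22.3%, and the other 10 genes (grey) between 17.4% and 99.2%.

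How the frequency of H4K16ac islands in the Mup window compared with that beside it depended on the width of the flanks. The window held 14.5 islands per Mb in MT (9.95 to 20.5) and 13.2 in WT (8.83 to 18.9). The 2 Mb on each side together held 12.5 per Mb in MT and 13.75 in WT. The rate in the window was 1.16 times that of the flanks in MT (0.722 to 1.85) and 0.959 times in WT (0.589 to 1.53), and both intervals include 1. With flanks of 1 Mb, which are denser in islands, the rate was 0.661 times that of the flanks in MT (0.406 to 1.07). In WT it was 0.586 times (0.354 to 0.955), an interval that excludes 1 when islands are counted as independent. Islands covered 93.8 kb, or 4.26%, of the window in MT and 60.6 kb, or 2.75%, in WT. The flanks were covered over 4.81% and 3.48%, and all chromosomes over 3.33% and 2.65%. The window was thus covered 0.886 times as much as its flanks in MT and 0.792 times in WT, but 1.19 and 0.962 times as much as the rest of chromosome 4. Among 1185 tiles of 2.2 Mb along the genome, the median tile held 19 MT and 18 WT islands, and 68.7% and 67.9% of tiles held fewer than the window. The quartiles were 5 and 36 islands in MT and 5 and 34 in WT. Islands were thus unevenly spread along the genome, which the counting intervals do not cover. The flanks were themselves uneven, with 31 MT and 40 WT islands before the window and 19 and 15 after it.

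Within the window the islands stood at its ends, with a large empty stretch between them. In MT no island overlapped chr4:59993601-61293200, and in WT none overlapped chr4:59965201-61287600. These stretches measured 1299.6 and 1322.4 kb, or 59.1% and 60.1% of the window, against a median of 10.8 and 13.0 kb between neighbouring islands of the lists. The longest stretch free of islands in the flanks was 951.4 kb in MT and 955.8 kb in WT. Stretches longer than that of the window were not unique to it: 341 of 28357 in MT (1.20%) and 330 of 26207 in WT exceeded it, with 20 and 22 of them on chromosome 4. Both lists together left chr4:59993601-61287600 empty, which is 1294.0 kb. The lists give no reads outside islands. In this stretch, absence of acetylation and absence of placed reads therefore cannot be told apart, and the part of the near-identical copies was not tested.

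**Figure D2:**
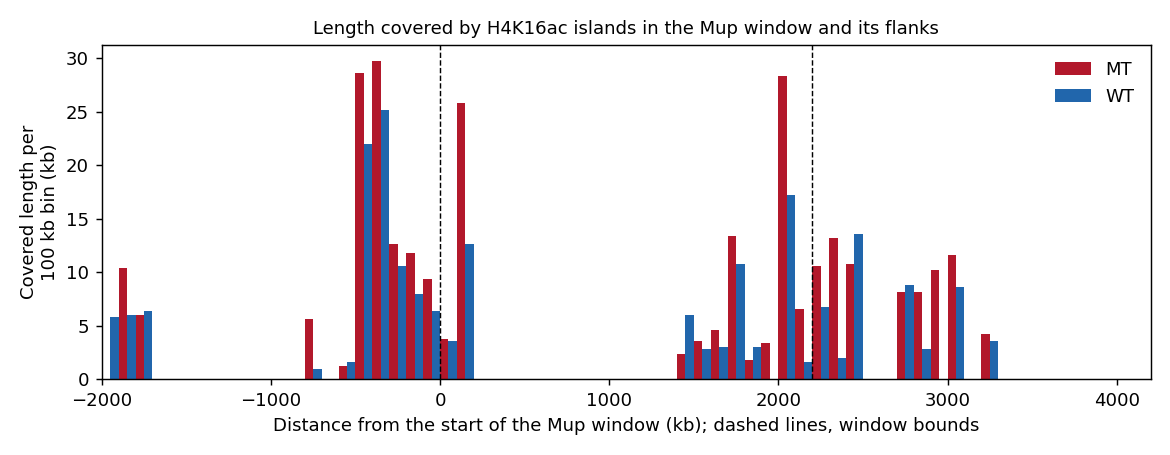
Length covered by H4K16ac islands (kb) in bins of 100 kb across the Mup window and 2 Mb on each side, by distance from the window start (kb), for MT (red) and WT (blue), with dashed lines at the window bounds. Islands of both mice gather at both ends of the window and leave a stretch of 1294.0 kb between them empty in both lists.

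The 12 regions before the empty stretch, called the proximal end here, and the 26 after it, called the distal end, were separated after the values had been seen. The proximal end held 10 MT and 7 WT islands. The ratio of ChIP to input reads, scaled for the sizes of the libraries so that 1 means no excess, was 1.88 over all MT proximal islands (1.69 to 2.11) and 2.01 over the WT ones (1.71 to 2.36). Both lie close to the ratios over all islands of the lists, 2.05 in MT and 2.09 in WT. The broadest region there, chr4:59935001-59943000, had 289 ChIP reads against 136 input reads for MT and 216 against 96 for WT, the most ChIP reads of any island of the window in either list. Its ratios were 2.01 and 2.04. The highest proximal ratio was 2.45 in MT. In WT it was 3.90, over an 800-bp island with 30 ChIP and 7 input reads.

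The distal end held 22 islands in each list and the higher ratios. Over all of its islands the ratio was 2.17 in MT (2.01 to 2.35) and 2.67 in WT (2.40 to 2.97). A ratio of at least 4 was reached by 2 of the 32 MT islands of the window (6.25%) and by 7 of the 29 WT islands (24.1%), all of them at the distal end. In the whole lists 3.21% of MT and 4.08% of WT islands reached it, so the WT share was above the background and the MT share rested on 2 islands. The MT islands at chr4:61509801-61511800, chr4:61512801-61517000 and chr4:61541401-61543800 fell just short, at 3.86, 3.73 and 3.94. Within chr4:61512801-61517000 WT had 2 of its islands where MT had 1. The contrast between 2 and 7 islands thus depends on the limit and on how islands were split. In the plot of islands by position, those of MT stand at 1772 and 1836 kb from the window start, and those of WT between 1710 and 1836 kb, with 1 more at 2052 kb.

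**Figure D3:**
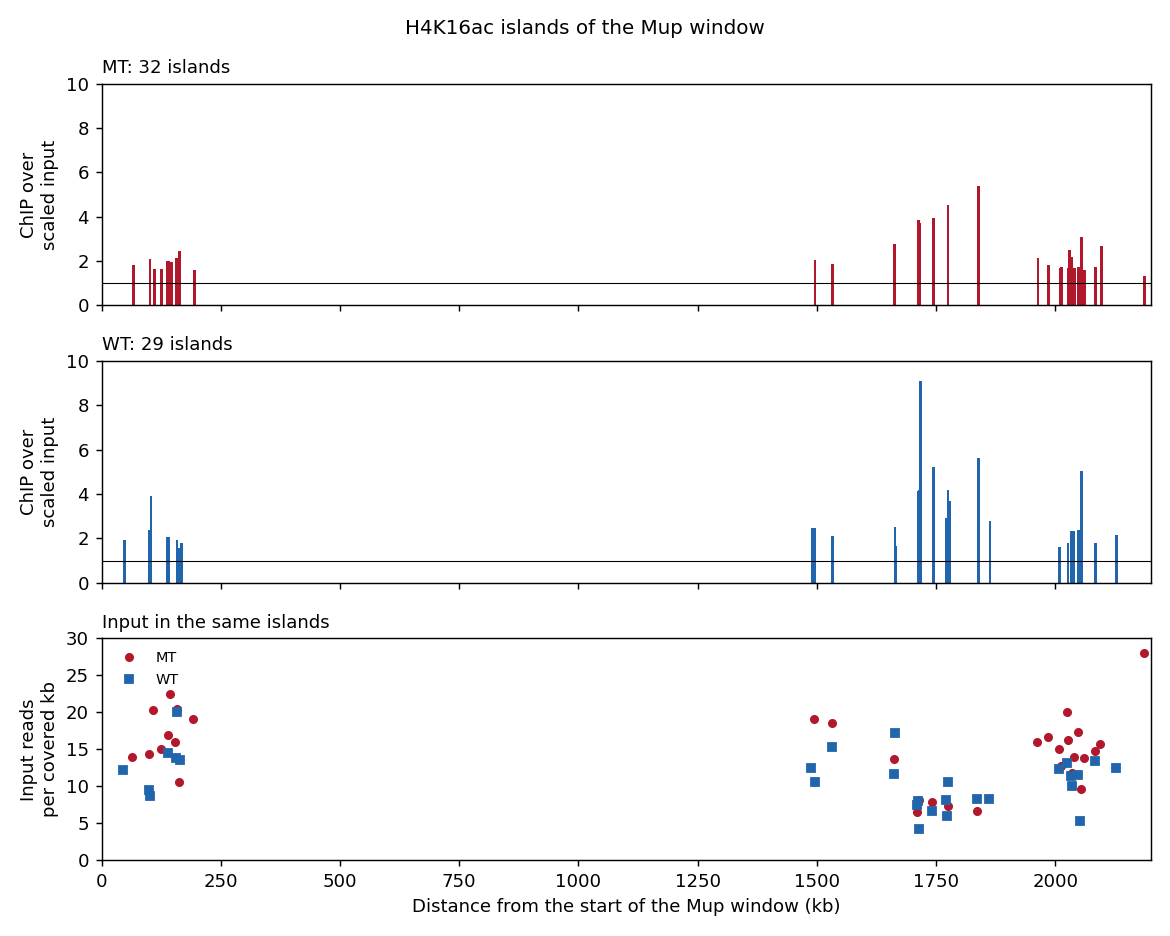
H4K16ac islands of the Mup window by distance from its start (kb). Bars give the ratio of ChIP to scaled input in MT (top, 32 islands) and WT (middle, 29 islands), with a line at a ratio of 1, and points in the bottom panel give input reads per covered kb. The highest ratios, 5.36 in MT and 9.09 in WT, lie at the distal end, where the input is lowest.

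At 6 of the 18 regions with islands in both lists, the ratio was 3 or more in both mice. Of the 14719 such shared regions of the genome, 6.88% reached it. The set was chosen after the values were seen, and the values are given as a description. The highest MT ratio of the window was at chr4:61636001-61637800, with 68 ChIP and 12 input reads and a ratio of 5.36 (2.88 to 10.9). Its WT island held 62 ChIP and 10 input reads and had a ratio of 5.63 (2.87 to 12.3). This region was thus strongly enriched in both mice, with overlapping intervals, and its ratio exceeded 99.3% of the islands of the MT list and 99.0% of the WT list.

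The highest WT ratio was at chr4:61514401-61515800, where 60 ChIP reads stood against 6 input reads. The ratio was 9.09 (3.94 to 25.7) and ranked 35 in the WT list. The input rather than the ChIP was extreme there. The island had 4.29 input reads per kb, a density under which 0.271% of WT islands fell, whereas 87.9% of WT islands had fewer ChIP reads per kb. In MT this stretch was part of chr4:61512801-61517000, a single island with 134 ChIP and 34 input reads and a ratio of 3.73 (2.54 to 5.61). WT had a second island in this region, and both WT islands together held 97 ChIP and 14 input reads, a ratio of 6.30.

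The other 4 regions of the set were alike in kind. At chr4:61509801-61511800 the ratio was 3.86 in MT and 4.14 in WT, from 53 and 41 ChIP reads against 13 and 9 input reads. At chr4:61541401-61543800 it was 3.94 in MT and 5.23 in WT, from 79 and 69 ChIP reads against 19 and 12 input reads. At chr4:61572201-61577000 it was 4.54 in MT and 3.87 in WT, from 168 and 132 ChIP reads against 35 and 31 input reads. Of the set, this last region alone had the higher ratio in MT. At chr4:61851601-61856600, nearer the end of the window, it was 3.07 in MT and 5.06 in WT, from 149 and 89 ChIP reads against 46 and 16 input reads.

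Input and ChIP reads were also taken apart at the 6 regions, which is a description, since a high ratio favours low input by construction. Over the 6 regions the input was 7.95 reads per covered kb in MT (6.76 to 9.29) and 6.87 in WT (5.53 to 8.42). Over the 12 other shared regions of the window it was 15.6 and 13.1. ChIP reads per covered kb in MT were 32.6 (30.1 to 35.1) at the 6 regions and 33.5 (31.7 to 35.3) at the other 12. In WT they were 36.6 (33.4 to 40.0) and 29.5 (27.8 to 31.3), so the 6 regions also had the higher ChIP density in WT, but not in MT. The 1012 regions of the genome that passed the same limit had more of both, with 11.1 input and 43.1 ChIP reads per kb in MT and 10.2 and 41.7 in WT. Input reads per kb depend on how much of a region can be mapped as well as on copy number, and the part of mapping in these ratios was not tested. The ratio over all islands of the window was 2.07 in MT (1.95 to 2.21) and 2.45 in WT (2.25 to 2.68). In the flanks together it was 1.81 and 1.98, with 1.95 and 2.14 before the window and 1.65 and 1.75 after it. Over all islands of the lists it was 2.05 and 2.09, so the MT window was close to its whole list. Input over all window islands was 14.9 reads per kb in MT (14.2 to 15.8) and 11.4 in WT (10.6 to 12.3). In the flanks together it was 17.5 and 15.7, with 15.7 and 14.2 before the window and 20.1 and 18.6 after it. Over all islands of the lists it was 15.4 and 14.1.

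Several islands with many ChIP reads carried ordinary or high input. At chr4:61460601-61465200, MT had 184 ChIP and 63 input reads and a ratio of 2.76, whereas WT had a pair of islands there with 96 ChIP and 45 input reads in all and a ratio of 1.94. At chr4:61330201-61334000 the ratio was 1.85 in MT, from 131 and 67 reads, and 2.11 in WT, from 100 and 43. At chr4:61881601-61886200 it was 1.73 in MT, from 97 and 53 reads, and 1.82 in WT, from 102 and 51. At chr4:61845601-61848400, a region of nearly equal ChIP reads in both mice (83 and 78), it was lower in MT (1.75) than in WT (2.36). The MT list alone had an island at chr4:61984001-61990600, next to the end of the window, with 259 ChIP and 185 input reads. Its ratio of 1.33 (1.09 to 1.61) was the lowest of the window, and its 28.0 input reads per kb exceeded 99.7% of the islands of that list. Islands of the window thus ran from barely above their input to among the most enriched of the lists.

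The mice were next compared region by region. Of the 38 regions, 18 had islands in both lists, 14 in MT only and 6 in WT only. By island, 18 of 32 MT islands met a WT island (56.3%, 39.3 to 71.8), where 56.5% did so over the whole MT list. In WT 23 of 29 met an MT island (79.3%, 61.6 to 90.2), where 64.3% did so over the whole WT list. Neither share was separated from its background by counting error. An island absent from a list fell short of the authors' threshold there, which differs from an absence of reads.

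At the 18 shared regions the density of ChIP reads is reads per covered kb after correction for library size. That correction set input densities equal over all shared regions. Under it, density differed little between MT and WT. Its median log2 change, MT over WT, was -0.02, against -0.01 over all 14719 shared regions, and all reads pooled gave 0.02 (-0.08 to 0.11). Setting the ChIP totals of the lists equal instead moved the pooled value to -0.28 (-0.38 to -0.19). Counting reads per region moved it to 0.25 (0.16 to 0.35). The log2 change in density was above 0 in 8 regions and below 0 in 10, and it ranged from -0.52 to 0.47. No region passed a 1.5-fold difference in either direction, where 2.89% of all shared regions were at least that much higher in MT and 4.05% at least that much lower.

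The interval of 16 of the 18 regions included 0, and the exceptions lay on opposite sides. The share of such intervals over all shared regions of the genome was not computed, so this count has no background to be read against. At chr4:61293001-61297800, the first shared region after the empty stretch, 100 ChIP reads over 2400 bp in MT and 138 over 4800 bp in WT gave a log2 of 0.47 (0.08 to 0.85). Input reads per kb were also higher there in MT, by 0.73 on the log2 scale, and the ratios were 2.06 in MT and 2.46 in WT. At chr4:61512801-61517000, with 134 ChIP reads over 4200 bp in MT and 97 over 2400 bp in WT, the log2 was -0.41 (-0.79 to -0.01). In both regions the list with the greater covered length had the lower density, and reads per region, not divided by length, turned the direction, to a log2 of -0.53 (-0.92 to -0.15) at the former and 0.40 (0.01 to 0.79) at the latter. The plot of changes by region shows the input beside each density.

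**Figure D4:**
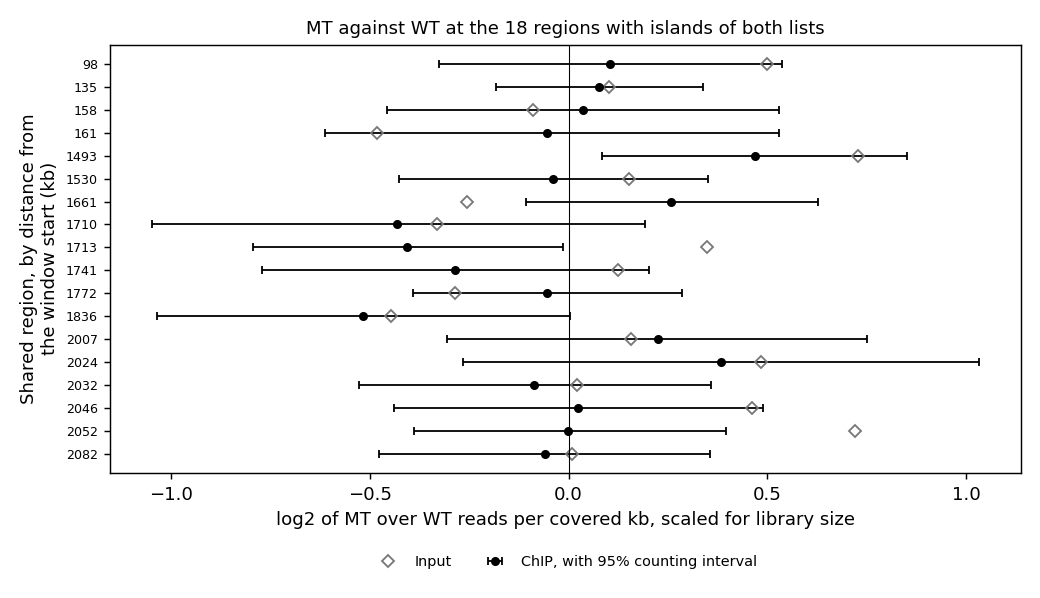
log2 of MT over WT read density (reads per covered kb, corrected for library size) at the 18 shared regions of the Mup window, listed by distance from the window start (kb). Filled points give ChIP with its 95% counting interval and open diamonds give input, and the ChIP values run from -0.52 to 0.47 with 16 of 18 intervals including 0.

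The 6 regions of high ratio had less ChIP signal per kb in MT than in WT, at a log2 of -0.23 (-0.40 to -0.06), with values from -0.52 to 0.00. The 1012 regions of the genome that passed the same limit had -0.02 (-0.03 to -0.01). They held 149643 ChIP reads over 3472.6 kb in MT and 129376 over 3099.4 kb in WT. Counted as reads per region instead, all 6 regions of the window were higher in MT, by a log2 of 0.07 to 0.68. The islands of these 6 covered 20.0 kb in MT and 13.4 kb in WT, so the direction depends on island length. The other 12 shared regions had a log2 of 0.12 (0.00 to 0.23). Input reads per kb differed by 0.09 and 0.13 on the same scale. The 6 regions had been chosen partly on these ChIP reads, so no test was made, and the density depends on where the islands end. MT islands were the longer in 12 shared regions, WT islands in 4, and 2 were equal, for 60.4 kb covered in MT and 51.2 kb in WT. MT also covered more over all 14719 shared regions of the genome, 58679.2 kb against 50859.6 kb. In 5 shared regions WT had 2 islands where MT had 1, and the reverse was not seen.

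Counting reads per region instead of per kb moved the balance toward MT. Reads per region were higher in MT in 14 of 18 regions, with a median log2 of 0.24 and with intervals above 0 in 5 regions and below 0 in 2. The 5 included chr4:59935001-59943000 (289 against 216 reads) and chr4:61460601-61465200 (184 against 96). All 14719 shared regions together also held more ChIP reads in MT, 2086901 against 1735935, with an MT ChIP library 1.05 times that of WT. The share of them with more reads in MT was not computed, so a balance toward MT is not shown to be particular to the window. The ratio to input, in contrast, was higher in WT in 13 of the 18 regions of the window. Over all shared regions of the genome the pooled ratios were 2.136 in MT and 2.145 in WT. The share of those regions with the higher ratio in WT was not computed. At Mup3, Mup4, Mup5, Mup6, Mup20 and Mup21 themselves no difference between MT and WT can be stated from these lists, since none of the islands could be placed on a gene.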

How the data were processed

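H4K16ac ChIP-Seq and input libraries of 1 MT and 1 WT liver were used. By the submitters' processing notes, Bowtie 0.12.7, SICER 1.03 and mm8 were used. The authors deposited 1 list of islands per mouse, made after removal of duplicate reads with 200-bp windows, gaps of up to 400 bp and a false discovery rate of 0.001. The lists have no header. The deposited counts are whole ChIP and input reads per island, the authors' fold is the ratio of these reads times a constant, and the authors' p-value and the q-value derived from it (the false discovery rate) were used only as a filter. The authors counted islands per mouse, not on pooled mice.

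The constant implies ChIP libraries 1.06 (MT) and 1.10 (WT) times as large as their inputs. Islands overlapping by at least 1 bp were merged. MT and WT were compared after input densities had been equalised over all shared regions, which makes the MT ChIP library 1.05 times that of WT. The median MT island held 74 ChIP reads against 35 of input and the median WT island 63 against 27; library totals are unknown. Intervals are exact for counts and ratios of counts and Wilson for shares, at 95%. They cover counting error only, and no test was possible with 1 mouse per genotype. Promoters were aligned globally in pairs and identity was taken over aligned bases. Python 3.11.15, numpy 2.4.6, pandas 2.3.3 and scipy 1.17.1 were used. The measures were tested on simulated lists in which both genotypes had the same island bounds. That test therefore did not cover differences in island length or splitting. Where a list of islands was too long to give in full, the 6 islands with the most ChIP reads in each list were named, and those named for their ratio were chosen after the values were seen. The genes, the window and the measures were chosen with earlier results of these data known. Alternatives were a stricter false discovery rate, an inner window, other flanks, a larger overlap, other scalings, and a minimum ratio added after seeing the data. Expression arrays were not analysed here.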

Additional observations from a re-analysis of the deposited data

How the results depend on the processing

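Of 47 recomputed values, 17 stayed within counting error, 27 moved further, and 3, all of them coverage, turned from below to above that of the background. Lengths of the empty stretch carry no counting error, so any change in them counted as moved. Some island rates and the pooled log2 also changed side, as given below, from main intervals that included no difference. No paired analysis was possible because each genotype was 1 mouse. With the false discovery rate limited to 1e-05 the empty stretch was 1329.2 kb in MT and 1345.2 kb in WT, the ratio 2.32 and 2.74, input 13.3 and 10.6 reads per kb, and the WT coverage relative to the flanks 0.958. An inner window without the edges left the empty stretch at 1293.2 and 1287.6 kb, with coverage at 0.316 and 0.433 times the flanks, an MT island rate of 0.376 times the flanks (0.154 to 0.800, now excluding 1), ratios of 3.00 and 3.04, input of 11.2 and 10.1 reads per kb, and 100% of MT islands shared. Flanks of 1 Mb gave island rates of 0.661 and 0.586 and coverage of 0.496 and 0.469 in MT and WT, so that the MT rate fell below 1 and the interval of the WT rate excluded 1. The WT island rate lay above 1, with intervals that include 1, at 1.33 under the stricter false discovery rate, 1.22 against the rest of chromosome 4 and 1.36 with islands of a ratio of at least 2. Against the rest of chromosome 4 coverage was 1.19 in MT, now above 1, and 0.962 in WT. With islands of a ratio of at least 2, added after seeing the data, coverage rose above the flanks in both, to 1.43 and 1.32, and the empty stretch was 1329.2 and 1345.2 kb. An overlap of 50% of both islands left 44.8% of WT islands shared. The pooled log2 of MT over WT was 0.25 (0.16 to 0.35) per region and -0.28 (-0.38 to -0.19) with equal ChIP totals. Its sign therefore depends on the scaling, and the cause was not tested.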
